A study of Mus musculus with 48 samples.

Results

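Female C57BL/6J mice that received both a high-fat diet (HFD) and a mixture of dioxin-like compounds were compared with females that received neither, a low-fat diet (LFD) with vehicle. The HFD mixture and LFD vehicle groups were taken from the labels and hold 6 liver libraries each, 12 of the 48 in the series. The mixture was given weekly and contained TCDD at 10 ng/kg, PeCDF at 80 ng/kg and PCB126 at 140 ng/kg, and livers were collected after 12 weeks. The LFD mixture and HFD vehicle females, also 6 libraries each, gave the effect of either treatment alone, so that the joint effect could be set against the sum of the single effects. Males of the same 4 treatments served as the nearest comparison. All mice were of the same wild-type strain, and neither diet composition nor starting age nor housing is given in the sources read. The numbers in the library names run separately for each diet, and vehicle and mixture libraries have separate ranges of numbers. No label says what the numbers mark. Any batch that follows them cannot be told apart from diet or mixture. The labels call the libraries replicates without saying that each came from a separate mouse, and p-values measure only the spread among them.

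The 3 compounds of the mixture are ligands of the AhR (aryl hydrocarbon receptor), which dimerises with ARNT and binds DNA at sites with the core letters GCGTG. In liver its best-known targets are Cyp1a1 and Cyp1a2, cytochromes P450 that oxidise aromatic compounds, together with conjugating enzymes of the UGT, GST and quinone reductase families. Dietary fat and cholesterol act on the same organ through other sensors: SREBP2 drives sterol synthesis when cell cholesterol is low, SREBP1c drives fatty acid synthesis, and LXR, FXR, CAR and PXR respond to sterols, bile acids and foreign compounds.

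The promoters of 3 genes that rose with the mixture on the LFD are shown because the 2 Cyp1a genes lie beside each other and yet differed in how diet and mixture combined. Cyp1a1 (ENSMUSG00000032315) lies on chromosome 9 from 57687928 to 57703824 on the plus strand of GRCm38. Cyp1a2 (ENSMUSG00000032310) lies on the minus strand of the same chromosome, from 57676937 to 57683703. Htatip2, a short-chain dehydrogenase-like protein, lies on chromosome 7 from 49759115 to 49773975. Each sequence is the 250 bases before a RefSeq transcript start (GRCm38.p6), printed 5′ to 3′ on the gene's own strand, at chr9:57697363-57697612 (plus), chr9:57683656-57683905 (minus) and chr7:49758856-49759105 (plus). Capitals mark the letters GCGTG on either strand, which read CACGC on the opposite strand.
Cyp1a1 promoter: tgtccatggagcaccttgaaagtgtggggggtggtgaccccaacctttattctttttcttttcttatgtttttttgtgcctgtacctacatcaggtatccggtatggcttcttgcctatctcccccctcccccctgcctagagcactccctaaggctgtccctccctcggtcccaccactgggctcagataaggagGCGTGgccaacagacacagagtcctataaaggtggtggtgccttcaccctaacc
Cyp1a2 promoter: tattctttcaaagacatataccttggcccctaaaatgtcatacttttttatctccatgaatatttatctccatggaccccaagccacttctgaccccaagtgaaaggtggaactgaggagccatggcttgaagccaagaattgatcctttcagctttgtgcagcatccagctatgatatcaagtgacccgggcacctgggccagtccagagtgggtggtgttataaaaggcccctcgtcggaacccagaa
Htatip2 promoter: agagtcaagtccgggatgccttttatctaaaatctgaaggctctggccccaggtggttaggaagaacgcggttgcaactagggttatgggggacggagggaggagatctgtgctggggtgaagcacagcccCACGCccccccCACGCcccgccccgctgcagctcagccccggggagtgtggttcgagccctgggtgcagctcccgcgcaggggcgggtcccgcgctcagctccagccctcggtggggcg
The Cyp1a1 window held 1 match, 54 bases before the start, the Cyp1a2 window held 0 and the Htatip2 window held 2. GCGTG on either strand was present in 28.2% of 32851 RefSeq promoter windows of this length, so a match describes the sequence only. A window before another Htatip2 start held 0 matches.

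Between 13360 and 14050 genes reached 1 TPM (transcript abundance, scaled by gene length and library) in the 12 libraries. TPM is scaled to a total of 1000000 in each library, so sequencing depth is unknown. Pearson correlations of log2(TPM + 1) were 0.978 to 0.982 among HFD mixture libraries, 0.956 to 0.981 among LFD vehicle libraries and 0.943 to 0.972 between the groups. LFD vehicle replicate 3 stood apart: the summed TPM of 15 skeletal muscle genes was 9423 in it, 20.3 to 44.3 in the other 5 controls and 10.7 to 35.1 in the HFD mixture libraries. Of 14 muscle genes tested, 0 passed in the joint comparison (limma), and their median log2 difference was -1.73, or -0.455 without that library. LFD mixture replicate 3 also carried muscle RNA (1951 TPM) and adrenal RNA (1970 TPM). Male HFD mixture replicate 6 carried the most muscle RNA (25180 TPM). Of 20 core hepatocyte genes 8 fell and 1 rose with both treatments, where 11.2% of all genes tested fell and 17.6% rose. Diet alone also gave 8 lower and 1 higher. The median log2 difference was -0.09 with both treatments and -0.13 for diet alone. Albumin (Alb), the most abundant of the 20, was present at 97000 to 117000 TPM in LFD vehicle and 52700 to 70700 TPM in HFD mixture livers.

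Diet and mixture together changed 4560 of 15820 genes tested (28.8%; limma, adjusted p below 0.05), 2791 higher (17.6%) and 1769 lower (11.2%). Changes of at least 1 on the log2 scale were called for 236 genes higher (1.49%) and 170 lower (1.07%). For 2291 genes (14.5%) the 6 HFD mixture libraries did not overlap the 6 controls. The split between directions depended on scaling: after trimmed-mean (TMM) scaling 4739 genes passed, 2304 higher and 2435 lower, which lowered the share of higher calls from 61.2% to 48.6%. Diet alone changed 4424 genes (28%), 2281 higher (14.4%) and 2143 lower (13.5%). The mixture alone changed 6 genes, all higher (0.0379%), while 1503 genes (9.5%) had an unadjusted p below 0.05. The joint effect and both single effects share the LFD vehicle libraries, so their values are given side by side and not as independent measurements. In liver homogenate, fewer cells of a type and less RNA per cell cannot be told apart.

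Cyp1a1, the classical AhR target, was the gene whose joint effect departed from the sum of the single effects. In LFD vehicle females its level was 2.2, 1.08, 1.6, 2.42, 1.78 and 1.67 TPM. With the mixture on the LFD it was 65.7, 96.6, 62, 88, 88.8 and 108 TPM. With the HFD and vehicle it was 0.534, 0.662, 0.903, 1.31, 0.991 and 0.778 TPM. The exposed LFD livers lay far above all others. With both treatments the level was 2.24, 2.5, 2.97, 4.73, 2.88 and 4.36 TPM, which overlapped the LFD controls (2.24 against a highest control of 2.42) and stayed far below the exposed LFD livers. The log2 differences from LFD vehicle were 4.93 for the mixture alone (limma adjusted p = 1.74e-22), -0.58 for diet alone (adjusted p = 0.0303) and 0.60 ± 0.20 (SE) for both (adjusted p = 0.0225). The departure from additivity, the joint difference minus the sum of the single differences, was -3.75 (95% interval -4.34 to -3.17; limma adjusted p = 2.76e-12). Additive log2 differences would give 55.4 TPM, and additive TPM differences would give 83.9 TPM. Cyp1a1 still rose with the mixture within the HFD, by 1.18 (limma adjusted p = 0.00625), where the 6 exposed livers all exceeded the 6 unexposed livers. The diet-alone call was lost with trimmed-mean scaling for Cyp1a2 and without the filter on low values for both Cyp1a genes.

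Cyp1a2, which also metabolises caffeine and oestrogens, kept its induction on the HFD. Its lowest, median and highest levels were 262, 308 and 415 TPM in LFD vehicle, 1860, 2380 and 2640 TPM in LFD mixture, 363, 404 and 480 TPM in HFD vehicle, and 2270, 2510 and 2830 TPM in HFD mixture females. Both exposed groups lay above both unexposed groups without overlap. The joint log2 difference was 2.99 ± 0.13 (SE; limma adjusted p = 7.19e-22), beside 2.85 for the mixture alone and 0.36 for diet alone. Its departure was -0.21 (95% interval -0.58 to 0.15), and on the TPM scale 150 ± 163 (SE) TPM above the additive level of 2385 TPM. Within the HFD the mixture raised Cyp1a2 by 2.63 (adjusted p = 1.18e-19), and Cyp1a1 and Cyp1a2 were the 2 genes called in that comparison (0.0126%). By unadjusted p below 0.05, 670 genes (4.24%) differed between HFD mixture and HFD vehicle females.

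**Figure D1:**
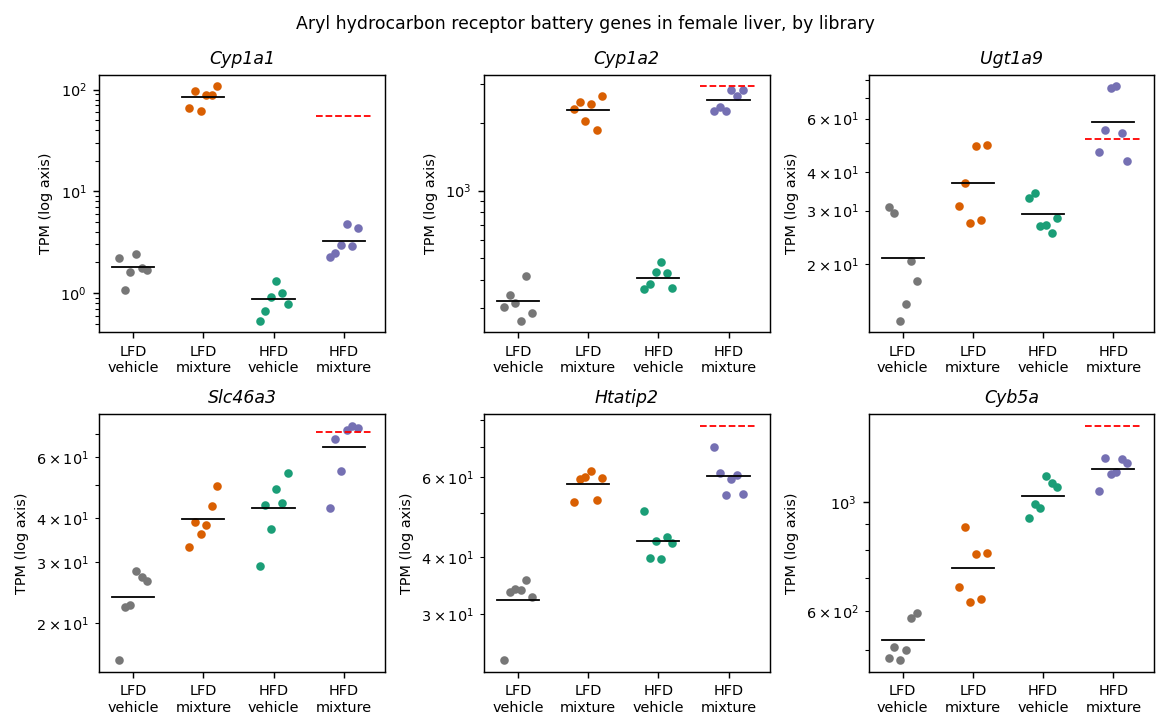
Levels of 6 AhR battery genes in the 4 female groups, in TPM on log axes. Points are the 6 libraries of a group, black lines are means, and red dashed lines mark the level that additive log2 differences would give. Cyp1a1 in HFD mixture livers lies at 2.24 to 4.73 TPM against an additive level of 55.4 TPM, while Cyp1a2 lies near its additive level.

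The other named genes called for the mixture alone also rose with both treatments. For the mixture alone the log2 differences were 0.83 for Htatip2, 0.74 for Slc46a3 and 0.48 for Cyb5a, each smaller than the joint difference. None of these genes was called for the mixture within the HFD. Htatip2 was present at 23.8 to 35.7 TPM (median 33.7) in LFD vehicle and 54.9 to 69.8 TPM (median 60.1) in HFD mixture females, a joint log2 difference of 0.89 (limma adjusted p = 1.64e-09). Slc46a3, a lysosomal transporter, rose from 15.7 to 28.3 TPM (median 24.6) to 42.8 to 73.9 TPM (median 69.8), a difference of 1.39 (adjusted p = 2.49e-09). Cyb5a, an electron donor to cytochromes P450, rose from 477 to 595 TPM (median 504) to 1050 to 1230 TPM (median 1180), a difference of 1.16 (adjusted p = 1.29e-13). The 2 groups did not overlap for any of these 3 genes. Their departures were -0.37 for Htatip2 (95% interval -0.64 to -0.10), -0.17 for Slc46a3 (-0.61 to 0.27) and -0.30 for Cyb5a (-0.55 to -0.05), each with a limma adjusted p of 1. The sixth gene called for the mixture alone, BC025446, was outside the naming rule and was looked up after its value of 0.34 was seen (adjusted p = 0.0287). That count of 6 fell to 3 without LFD vehicle replicate 3, and also with trimmed-mean scaling. Cyp1a1, Cyp1a2 and Htatip2 kept their mixture-alone call under both settings, and the 3 others lost it: Cyb5a had an adjusted p of 0.0505 and 0.191, and Slc46a3 of 0.145 and 0.191.

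The AhR battery as a list had 25 tested members, of which 14 rose and 2 fell with both treatments, with a median log2 difference of 0.48 against 0.02 over all genes tested. For the mixture alone 5 rose (3 with trimmed-mean scaling), with a median of 0.19, and for diet alone 12 rose and 4 fell, with a median of 0.31. Those 5 were Cyp1a1, Cyp1a2, Htatip2, Slc46a3 and Cyb5a, already described. The list was chosen with earlier results of these data known, so its counts are a description and not a test of the battery. Members that rose include Ugt1a9 (1.47, adjusted p = 3.92e-05), a glucuronosyltransferase whose exons are shared with other Ugt1a genes so that its value is uncertain. Nqo1, a quinone reductase and shared AhR and Nrf2 target, rose by 0.78 (adjusted p = 3.86e-05) and its regulator Nfe2l2 by 0.53 (adjusted p = 0.000392). Members that fell include Fgf21, a hepatic hormone (-1.15, limma adjusted p = 0.0341). The receptor Ahr and its partner Arnt differed by 0.08 and 0.11, and Tiparp, an AhR feedback gene, by 0.15, with limma adjusted p of 0.414 or more. Cyp1b1, an extrahepatic P450, stayed near 1 TPM and differed by -0.09 (adjusted p = 0.758).

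Apart from Cyp1a2, the 10 largest rises were genes whose difference for diet alone was of similar size. Cyp26a1, which degrades retinoic acid, was present at 4.44 to 11.1 TPM (median 9.41) in LFD vehicle and 52.7 to 116 TPM (median 100) in HFD mixture females, and the groups did not overlap. Its joint log2 difference was 3.28 ± 0.34 (SE; limma adjusted p = 5.76e-10), beside 3.47 for diet alone and -0.03 for the mixture alone. Next came sulfotransferases that conjugate bile acids and steroids: Sult2a7 at 3.22, Sult2a3 at 2.83 and Sult2a5 at 2.76. Sult2a3 was present at 15.3 to 84.7 TPM (median 30.2) in the controls and 167 to 329 TPM (median 237) with both treatments. The Sult2a genes are near-identical copies, and how the authors split reads among them is not known.

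The remaining large rises were Orm3 (3.20) and Saa2 (2.67), acute phase proteins, Adam11 (3.06), a catalytically inactive ADAM protein, Gsta2 (3.04), a glutathione transferase, and Raet1d (2.84), a ligand of the lymphocyte receptor NKG2D. Acute phase genes as a list moved in both directions, with 9 of 30 higher and 11 lower, beside 17.6% and 11.2% of all genes. Their median log2 difference was -0.06, and diet alone gave 8 higher and 10 lower. Gsta2 was present at 3.7 to 7.58 TPM (median 6.38) in the controls and 42.3 to 80.5 TPM (median 52.7) with both treatments. Orm3, Saa2, Gsta2 and Raet1d belong to families with near-identical members and carry the same uncertainty. Over these 10 genes diet alone gave log2 differences of 0.36 to 3.96 and the mixture alone -0.21 to 2.85. Their departures ran from -0.67 to 0.21, and all 10 of the 95% intervals held 0.

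The largest fall was that of Fabp5, a fatty acid-binding protein. It was present at 111 to 261 TPM (median 196) in LFD vehicle and 6.54 to 15.7 TPM (median 9.8) in HFD mixture females. The groups did not overlap, and the joint log2 difference was -4.10 ± 0.35 (SE; limma adjusted p = 6.56e-12), beside -4.30 for diet alone and -0.61 for the mixture alone. G6pdx, the entry enzyme of the pentose phosphate pathway, fell from 42.8 to 94.2 TPM (median 71.8) to 5.12 to 7.11 TPM (median 6.33), a difference of -3.26. Lpin1, a phosphatidate phosphatase and transcriptional coactivator, fell from 329 to 552 TPM (median 498) to 30.5 to 62.6 TPM (median 54), a difference of -3.22.

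Among the 10 largest falls were also 2 enzymes of the sterol pathway. Idi1, isopentenyl diphosphate isomerase, differed by -3.19, and Sqle, squalene epoxidase, by -3.06, from 19.6 to 96.4 TPM (median 39.4) to 2.96 to 7.33 TPM (median 3.46). The others were Cyp3a44, a female-biased P450 (-3.04), Chrna4, a nicotinic receptor subunit (-3.00), Eif4ebp3, a translation repressor (-2.79), Acss2, which makes acetyl-CoA from acetate (-2.63), and Cdkn1a, the cell cycle inhibitor p21 (-2.58). For these 10 genes diet alone gave -4.30 to -2.06 and the mixture alone -0.79 to 0.13. Of their departures, 9 of 10 intervals held 0. The exception was Cyp3a44, at 1.57 (95% interval 0.38 to 2.75; unadjusted p = 0.0107, limma adjusted p = 1), with 5.82 to 15 TPM in HFD vehicle and 1.97 to 58.3 TPM in HFD mixture livers. Cyp3a44 shares near-identical sequence with other Cyp3a genes, and G6pdx, Idi1, Acss2 and Cdkn1a overlap genes on the opposite strand, and whether counting used strand is not known.

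**Figure D2:**
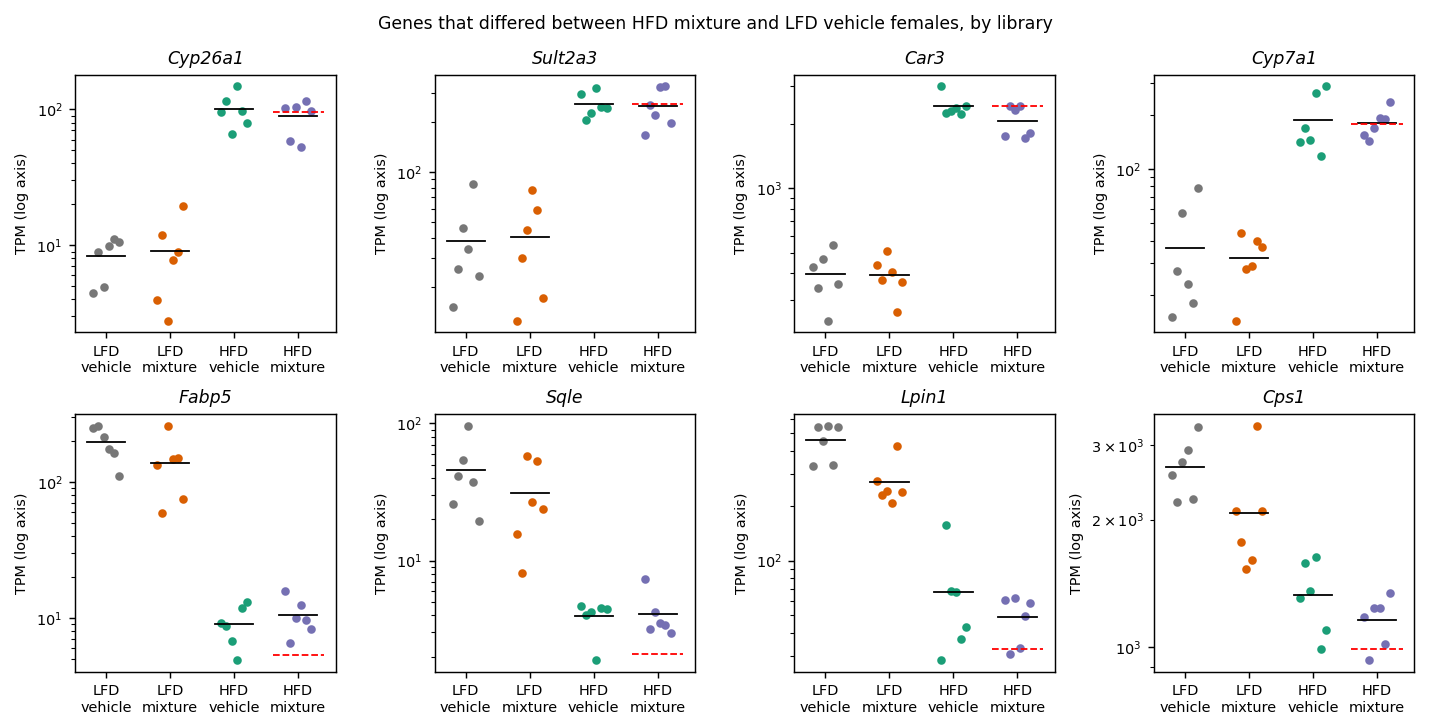
Levels of 8 genes in the 4 female groups, in TPM on log axes. Points are the 6 libraries of a group, black lines are means, and red dashed lines mark the level that additive log2 differences would give. In each of the 8 panels the HFD mixture libraries do not overlap the LFD vehicle libraries, for example 52.7 to 116 against 4.44 to 11.1 TPM for Cyp26a1.

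Of 25 cholesterol synthesis genes tested, 21 fell and 0 rose with both treatments, with a median log2 difference of -1.21. Tm7sf2, a sterol reductase, fell by 1.46 (limma adjusted p = 2.8e-11), Cyp51, lanosterol demethylase, by 2.57 (adjusted p = 1.43e-08), and Hsd17b7, a sterol ketoreductase, by 1.48 (adjusted p = 1.46e-08). For diet alone 19 fell and 0 rose, with a median of -1.26. For the mixture alone 0 were called by limma and 2 had an unadjusted p below 0.05, with a median of -0.34. The median departure was 0.28, with 0 called and 1 of 25 below an unadjusted p of 0.05. The count of 21 falls was also obtained with trimmed-mean scaling, and was 20 without LFD vehicle replicate 3.

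De novo lipogenesis genes fell more often than they rose. Of 26 genes 13 fell and 3 rose, where 11.2% of all genes fell and 17.6% rose. For diet alone 16 fell and 3 rose. The median was -0.73 with both treatments, beside -0.67 for diet alone and -0.38 for the mixture alone. Srebf1, which encodes SREBP1, was among the 3 that rose. It was present at 91.4 to 162 TPM (median 110) in LFD vehicle and 236 to 322 TPM (median 304) in HFD mixture females, a log2 difference of 1.37 (limma adjusted p = 3.48e-08), and Mogat1, a monoacylglycerol acyltransferase, rose by 1.82 (adjusted p = 2.96e-06). Of 18 lipid droplet genes tested 3 rose and 2 fell, close to the shares of all genes called (17.6% and 11.2%). Among them Plin5, a droplet coat protein, fell by 1.82 (adjusted p = 2.96e-09) and Fitm1, which promotes droplet formation, rose by 2.52 (adjusted p = 2.6e-08).

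Beyond Cyp1a1, a departure from additivity was not detected at an adjusted p below 0.05 (1 of 15820 genes, 0.00632%, limma), and 734 genes (4.64%) had an unadjusted p below 0.05. The median standard error of a departure was 0.173, against 0.123 for the joint effect, and the median absolute departure was 0.119. The 5 genes with the next smallest p all had a limma adjusted p of 1. These were Cttnbp2nl at 0.61 (95% interval 0.29 to 0.93), Olfr1033 at -0.61 (-0.93 to -0.28), Fam110c at -0.68 (-1.05 to -0.31), Zfp772 at -0.59 (-0.92 to -0.27) and Alkbh2, a DNA repair dioxygenase, at -0.64 (-1.01 to -0.28). Alkbh2 also rose in the joint comparison, by 0.82 (adjusted p = 2.61e-06). Diet differences measured in exposed females (HFD mixture minus LFD mixture) share no library with those in vehicle females, and 3039 genes (19.2%) passed among the exposed.

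**Figure D3:**
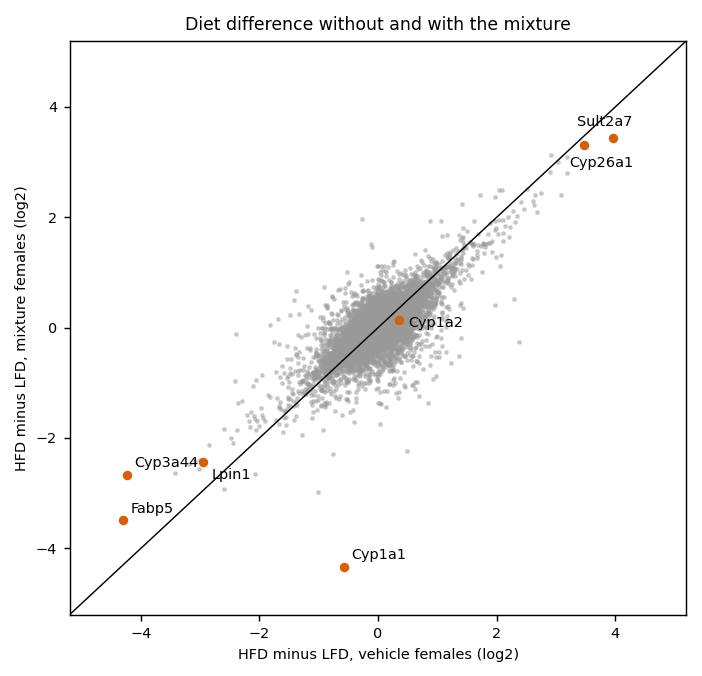
Diet difference of each tested gene in vehicle females (x axis) and in mixture females (y axis), both as log2 differences. Grey points are genes, the line marks equal differences and labelled genes are orange. Cyp1a1 lies far below the line, at -0.58 in vehicle and -4.33 in mixture females, whereas Cyp26a1 and Fabp5 lie near it.

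Targets of other regulators of foreign compound metabolism rose in greater number than they fell, beside 17.6% and 11.2% of all genes. These lists are not separate from the AhR battery, since Nqo1 is a shared AhR and Nrf2 target. Of 28 CAR and PXR targets 13 rose and 1 fell (12 and 3 without LFD vehicle replicate 3), with a median log2 difference of 0.58 beside 0.51 for diet alone and 0.04 for the mixture alone. Aldh1a1, a retinal dehydrogenase, was present at 374 to 525 TPM (median 512) in LFD vehicle and 1680 to 2570 TPM (median 2050) in HFD mixture females, a difference of 2.07 (limma adjusted p = 3.02e-16). Cyp2c50, a P450 that epoxidises arachidonic acid, rose by 1.97 (adjusted p = 1.84e-10). Of 23 Nrf2 targets 13 rose and 3 fell, beside 12 and 3 for diet alone. With both treatments Ephx1, microsomal epoxide hydrolase, rose by 1.72 (limma adjusted p = 1.88e-14) and Gclm, of glutathione synthesis, by 0.64 (adjusted p = 2.61e-06).

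Bile acid genes moved in both directions. Cyp7a1, which sets the rate of bile acid synthesis, was present at 15 to 78 TPM (median 25) in the controls and 143 to 236 TPM (median 178) with both treatments. The groups did not overlap, and the difference was 2.52 (limma adjusted p = 3.38e-07), beside 2.51 for diet alone and 0.00 for the mixture alone. Slc10a1, which takes bile acids up from blood, fell by 0.78 (adjusted p = 2.69e-08), and Abcg5, which exports sterols into bile, rose by 0.79 (adjusted p = 1.51e-06). Over the list 9 of 26 genes rose and 7 fell, beside 9 and 6 for diet alone. Of all genes 17.6% rose and 11.2% fell with both treatments.

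More genes of nitrogen and glucose metabolism fell than rose, whereas over all genes 11.2% fell and 17.6% rose. Cps1, the first enzyme of the urea cycle, was present at 2200 to 3300 TPM (median 2640) in LFD vehicle and 934 to 1340 TPM (median 1210) in HFD mixture females, a difference of -1.19 (limma adjusted p = 2.01e-06). Ass1, argininosuccinate synthase, fell by 0.91 (adjusted p = 8.41e-07), whereas Otc, of the same cycle, rose by 0.57 (adjusted p = 1.01e-06). Of 30 genes of urea cycle or amino acid breakdown 12 fell and 6 rose, beside 10 and 6 for diet alone. Of 31 glucose and glycogen genes 10 fell and 2 rose, beside 10 and 3 for diet alone. With trimmed-mean scaling 13 fell and 6 rose in the first list, and 11 fell and 2 rose in the second. With both treatments Pck1, the gluconeogenic carboxykinase, differed by -0.82 (limma adjusted p = 0.000376). By lobule position, 13 of 25 pericentral genes rose and 1 fell, and 8 of 26 periportal genes fell and 2 rose. The same shares of all genes, 17.6% higher and 11.2% lower, stand beside these counts. For diet alone 11 pericentral genes rose and 3 fell, and 9 periportal genes fell and 2 rose. Avpr1a, a vasopressin receptor, was the pericentral gene that fell with both treatments, by 1.68 (limma adjusted p = 8.35e-08).

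Of 39 interferon response genes 19 rose and 1 fell (17 and 1 with trimmed-mean scaling, and also without LFD vehicle replicate 3), with a median of 0.37 beside 0.20 for diet alone, where 8 rose and 1 fell. With both treatments 17.6% of all genes rose and 11.2% fell. For the mixture alone 0 were called by limma, with a median of 0.05. Between HFD mixture and HFD vehicle females 0 of 39 were called by limma, with a median of 0.18. An unadjusted p below 0.05 was found for 7 of them, beside 4.24% of all genes. Psmb9, an immunoproteasome subunit, was present at 7.16 to 14.5 TPM (median 8.1) in the controls and 15.5 to 20.5 TPM (median 17.8) with both treatments, a difference of 0.89 (limma adjusted p = 3.55e-05). Ifit1, an interferon-induced RNA-binding protein, rose from 5.02 to 10 TPM (median 7.44) to 12.1 to 17.1 TPM (median 13). The 2 groups did not overlap for either gene. The departures were 0.00 for Psmb9 (95% interval -0.46 to 0.47) and 0.17 for Ifit1 (-0.31 to 0.64). Of 20 genes of antigen presentation 13 rose and 1 fell, beside 10 and 1 for diet alone. With both treatments B2m, the MHC class I light chain, rose by 0.40 (limma adjusted p = 4.08e-05). H2-Q7, a class I heavy chain of a near-identical family, fell by 0.67 (adjusted p = 0.000252).

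Markers of other liver cells moved in different directions. Of 18 lipid-associated macrophage genes 10 rose and 3 fell, with a median of 0.60, beside 8 and 4 with a median of 0.37 for diet alone. Atp6v0d2, a lysosomal proton pump subunit, rose by 1.25 (limma adjusted p = 9.64e-06) and Ctsb, a lysosomal protease, by 0.55 (adjusted p = 1.59e-06). Fabp5 and Cd9 (-1.32, adjusted p = 5.65e-07), which belong to the same list, fell. Of 21 Kupffer cell and macrophage genes 3 rose and 1 fell, beside 17.6% and 11.2% of all genes. Their median was 0.25 (0.144 without LFD vehicle replicate 3), beside -0.04 for diet alone and -0.21 for the mixture alone. Their median departure was 0.50, with 0 called by limma and 8 of 21 below an unadjusted p of 0.05, beside 4.64% of all genes. The Kupffer cell gene that fell was Cd163, a haemoglobin scavenger receptor, at 20.4 to 39.6 TPM (median 39.5) in the controls and 7.16 to 13.7 TPM (median 10.3) with both treatments. C1qa, among those that rose, lost its call (adjusted p = 0.132) without LFD vehicle replicate 3.

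Of 22 endothelial genes 13 fell and 0 rose, where 11.2% of all genes fell and 17.6% rose. For diet alone 19 fell and 0 rose. The median was -0.38 with both treatments, beside -0.50 for diet alone and -0.12 for the mixture alone. Ehd3, of the sinusoidal endothelium, was present at 51.8 to 88.4 TPM (median 70) in LFD vehicle and 31.1 to 51.5 TPM (median 35.6) in HFD mixture females, a difference of -0.90 (limma adjusted p = 5.64e-08). The groups came close without overlapping. Stab1, a scavenger receptor of the same cells, fell by 0.71 (adjusted p = 3.91e-05) and Eng, a TGF-beta co-receptor, by 0.49 (adjusted p = 1.75e-05). The summed level of the 22 genes was 433 to 670 TPM in the controls and 339 to 473 TPM with both treatments, and none of them was at 0 in every library of either group.

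Of 16 cholangiocyte and ductular genes 7 rose and 0 fell, beside 5 and 1 for diet alone. Krt23, a keratin, was present at 1.71 to 4.26 TPM (median 2.11) in the controls and 15.4 to 36.5 TPM (median 19.2) with both treatments, a difference of 2.67 (limma adjusted p = 1.43e-08), and Krt8, also made by hepatocytes, rose by 0.88 (adjusted p = 2.66e-08). Of 32 stellate cell and fibrosis genes 4 rose and 4 fell, near the shares of all genes called, with a median of 0.00: Col3a1, a fibrillar collagen, rose by 0.84 (adjusted p = 0.00396), and Pdgfra, a growth factor receptor, fell by 0.58 (adjusted p = 0.000906). Of 14 lymphocyte genes 3 rose, close to the 17.6% of all genes, including the B cell receptor genes Cd79a (0.75) and Cd79b (0.63). Without LFD vehicle replicate 3, Cd79b lost its call (adjusted p = 0.0659) and the count was 1.

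The summed level of 14 adipose genes was 1111 to 1459 TPM in the controls and 2690 to 3447 TPM with both treatments. Of 10 tested, 2 rose and 0 fell, beside 17.6% and 11.2% of all genes. Car3, a carbonic anhydrase that hepatocytes also make, made up much of the sum, at 241 to 545 TPM (median 392) and 1710 to 2410 TPM (median 2060), a difference of 2.41 (limma adjusted p = 1.29e-14). Adipoq, the defining fat cell hormone, was at 0 in 6 of 6 HFD mixture and 4 of 6 LFD vehicle libraries, and Lep, leptin, in 5 of 6 of either group.

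**Figure D4:**
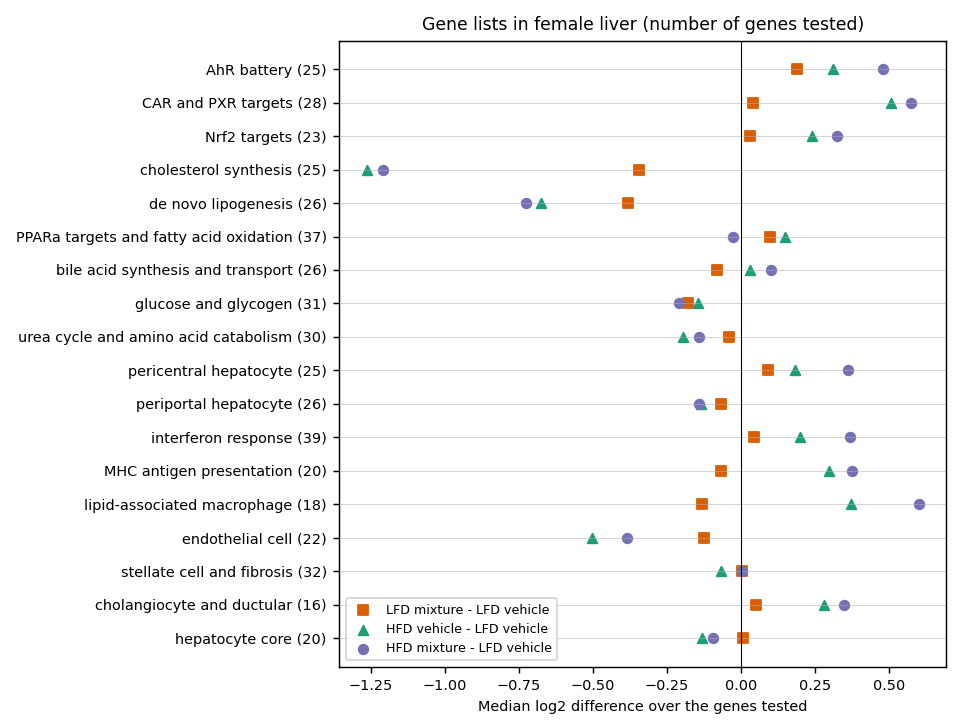
Median log2 difference of 18 gene lists in female liver, with the number of genes tested in brackets. Squares are the mixture alone, triangles diet alone and circles both, each against the same LFD vehicle libraries. Cholesterol synthesis lies at -1.21 with both treatments and -1.26 with diet alone, and the AhR battery at 0.48 with both.

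The joint effect was set against the same comparison in males. The difference between the sexes passed for 3157 genes (20%), 792 higher in females (5.01%) and 2365 lower (14.9%). The median of all genes was -0.13 (female minus male) and -0.01 after trimmed-mean scaling, which called 1367 higher and 1310 lower, so counts by direction are read relative to that shift. In males the joint effect passed for 6341 genes (40.1%). Without male HFD mixture replicate 6, the library with the most muscle RNA, the sex difference called 757 genes higher and 2447 lower.

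Cdkn1a moved in opposite directions. In females it went from 21.4 to 100 TPM (median 59) to 6.41 to 12 TPM (median 8.47), and in males the joint log2 difference was 2.17 against -2.58 in females, a sex difference of -4.75 (limma adjusted p = 1.9e-09). Acnat2, a peroxisomal acyltransferase, and Tmem64, a membrane protein, also fell in females (-0.78 and -0.65) and rose in males (1.84 and 0.97). Pipox, a peroxisomal oxidase, rose in females (0.30) and fell in males (-0.57). Cyp2b9, a P450 with female-biased expression, was already at 499 to 664 TPM in LFD vehicle females and at 597 to 816 TPM with both treatments (0.28, adjusted p = 0.641), and differed by 5.73 in males. The predicted gene B430212C06Rik differed by 0.07 in females and 1.76 in males, and it overlaps Cidea and Impa2 on the opposite strand, so its value is uncertain.

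**Figure D5:**
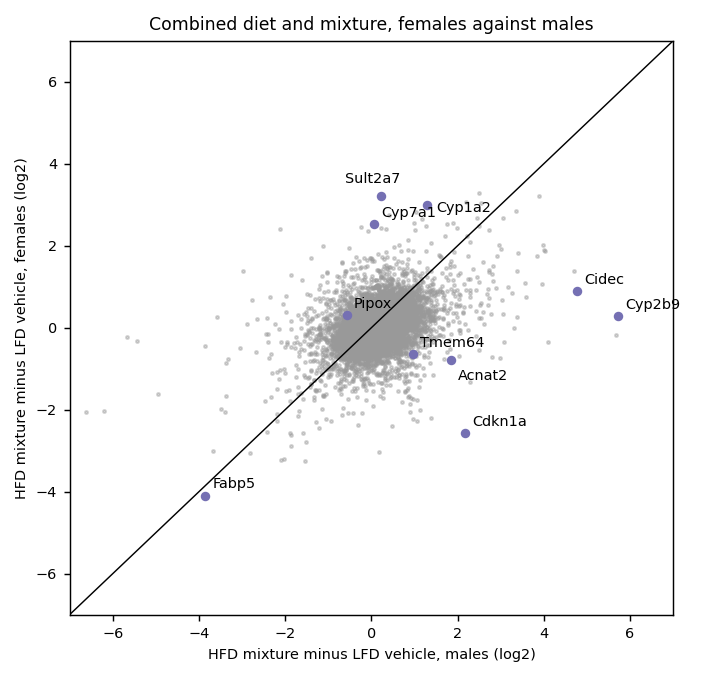
Joint effect of diet and mixture in males (x axis) and females (y axis), as log2 differences of HFD mixture from LFD vehicle. Grey points are genes, the line marks equal effects and labelled genes are purple. Cdkn1a lies at -2.58 in females and 2.17 in males, and Cyp2b9 at 0.28 and 5.73.

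Gene groups with a median near 0 in females moved in males. Of 37 PPARa targets and fatty acid oxidation genes 10 rose and 6 fell in females, while 31 rose and 2 fell in males. In the test of the difference 31 were lower in the female than in the male effect with 0 higher (25 and 1 with trimmed-mean scaling, 28 and 0 without male HFD mixture replicate 6), with a median difference of -0.84. Of 32 stellate cell and fibrosis genes 29 rose and 0 fell in males, and 27 were lower in the female effect and 0 higher (26 and 0 with trimmed-mean scaling, 27 and 0 without male HFD mixture replicate 6), with a median of -1.13. Of 37 genes with male-biased expression 25 were higher in the female effect and 2 lower, with a median of 1.46. In males 30 of them fell and 3 rose, against 4 and 10 in females. This list was chosen for high levels in males, and 32 of its members passed the filter when only the groups of the female joint effect were used. Genes low in females can fall little on the log2(TPM + 1) scale, so these counts are a description and not a test. Genes higher in the female effect include Sult2a7 (3.00), Cyp7a1 (2.47), Car3 (2.07) and Cyp1a2 (1.71). Cyp1a2 rose by 2.99 in females and 1.28 in males, and Cyp1a1 by 0.60 and 0.95, a sex difference of -0.35 (limma adjusted p = 0.428). Male Cyp1a1 ranged from 86.1 to 195 TPM with the mixture on the LFD and from 2.22 to 8.59 TPM with both treatments.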

How the data were processed

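The 48 libraries hold liver polyA RNA from 8 groups of 6 libraries. GRCm38, STAR 2.5.2b, Trimmomatic 0.36, FastQC and DESeq2 are named in the submitters' processing notes, without roles. The sources used here do not give the counter, annotation, gene lengths or strand setting. The authors deposited TPM, reads per gene length scaled to 1000000 in each library, so depth is unknown.

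The limma package (3.58.1, R 4.3.3, intensity trend) was applied to log2(TPM + 1) for genes at 1 TPM or more in at least 6 libraries. One mean per group was fitted to all 48 libraries (40 residual degrees of freedom), with Benjamini-Hochberg adjustment over 15820 genes within each comparison. A log2 difference on this scale understates the change of low genes. The fit was also run on simulated data with independent normal noise for each gene. That setting held no library with muscle RNA and no shift in scaling, so it does not bear on those limits.

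Named genes are the 10 largest rises and 10 largest falls whose higher group averages 5 TPM or more (predicted genes left out), the 6 smallest p for the departure and for the sex difference, the AhR battery, and the 4 smallest p of each described list. Further genes named from the lists or named as absent were chosen after their values were seen. Members and the 42 gene lists were chosen with earlier results of these data known. A few list members are not reported here by name. Lists are described by counts and medians, with no set test. Coordinates are from GENCODE M21, in which 15779 of the genes tested were found. Alternatives were trimmed-mean scaling, no filter, a pseudocount of 0.1, only the groups compared, libraries with muscle RNA left out (male HFD mixture replicate 6 alone was added after seeing the data), a replicate block and no intensity trend.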

Additional observations from a re-analysis of the deposited data

Results flagged for a closer look

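A library lay far from the other 5 of its group for 4 of 62 combinations of gene and group tested, where chance flags about 1 in 20. Sult2a7 was at 14.7 TPM in LFD vehicle replicate 2, against 2.5 to 6.4 TPM in the others, and Idi1 was at 104 TPM in LFD vehicle replicate 4, against 17.1 to 47.6 TPM. Sqle was at 7.33 TPM in HFD mixture replicate 1, against 2.96 to 4.2 TPM. Olfr1033 was at 4.29 TPM in HFD mixture replicate 6, against 5.93 to 6.74 TPM.

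The mixture effect on Cyp1a1 differed between the diets, by -3.75 on the log2 scale (HFD minus LFD, limma adjusted p = 2.76e-12).

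The joint effect differed between the sexes (limma, female minus male) for 15 of the 31 genes examined, beside 20% of all genes. Of the 31, 6 were named because they had the smallest p in this same test (Cdkn1a, Acnat2, Tmem64, Pipox, Cyp2b9 and B430212C06Rik), so the count is a description. It was higher in females for Sult2a7 (3.00), Sult2a5 (2.34), Sult2a3 (1.80), Cyp1a2 (1.71), Pipox (0.88) and Adam11 (0.86). With a pseudocount of 0.1 TPM the values were 1.20 for Sult2a5 (adjusted p = 0.146) and 0.10 for Sult2a3 (adjusted p = 0.936), so these 2 calls rest on the log scale used. Adam11 lost its call under 4 alternatives (adjusted p = 0.0511 to 0.0902). The joint effect was lower in females for Cyp2b9 (-5.45), Cdkn1a (-4.75), Cyp3a44 (-3.22), Acnat2 (-2.62), G6pdx (-1.71), B430212C06Rik (-1.70), Tmem64 (-1.62), Fam110c (-0.59) and Cttnbp2nl (-0.55). G6pdx had an adjusted p of 0.0578 without the filter on low values.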

How the results depend on the processing

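The joint effect was called for 4098 genes (no filter) to 4739 (trimmed-mean scaling) over 9 alternatives, and 4083 of its 4560 genes were also called among 4312 without LFD vehicle replicate 3. The departure was called for Cyp1a1 and no other gene under each of the 9. The mixture alone called 3 genes with trimmed-mean scaling and 3 without LFD vehicle replicate 3, in place of 6, and 9 without male HFD mixture replicate 6, an alternative chosen after seeing the data. The sex difference called 1367 higher and 1310 lower with trimmed-mean scaling, in place of 792 and 2365. None of the 189 named genes reversed a called direction. The joint call was lost without the filter for 6 of them (including Fgf21, Ccr2, C1qa, Cd79b and Csf3r) and with trimmed-mean scaling for 1 (C1qa, adjusted p = 0.0776). Diet-alone adjusted p without the filter was 0.0661 for Cyp1a1 and 0.0691 for Cyp1a2, and 0.0508 for Cyp1a2 with trimmed-mean scaling. Without LFD vehicle replicate 3 the joint call was lost for 4 named genes (including C1qa, Cd79b and Csf3r) and gained for 1 (Hba-a2). Replicate numbers are not said to pair animals: same-numbered HFD mixture and LFD vehicle libraries correlated at -0.108 to 0.0884, 0 of 6 above 0.1, and 1 of 6 best with its own number. With the LFD vehicle libraries, 4 of 6 LFD mixture libraries (highest 0.438) and 4 of 6 HFD vehicle libraries (highest 0.17) lay above 0.1, and 2 and 3 of 6 correlated best with their own number. With the number as a replicate block 4649 joint, 7 mixture-alone, 4499 diet-alone, 3284 sex-difference and 1 departure calls were made. The cause of these shifts was not tested.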

Other observations

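Circadian clock genes were called in both directions between HFD mixture and LFD vehicle females, with 6 of 19 higher and 3 lower (limma, adjusted p below 0.05). The shares of all genes were 17.6% and 11.2%. Diet alone gave 6 higher and 2 lower, with a median log2 difference of 0.32 beside 0.27 for both treatments. Arntl, a core activator of the clock, was present at 1.73 to 11.7 TPM (median 3.09) in the controls and 0.639 to 0.936 TPM (median 0.782) with both treatments, and its partner Clock fell by 0.66 on the log2 scale. Per2, a repressor of the clock, rose by 1.04. No source read gives the time of day of collection, so a difference in collection time cannot be told apart from the treatments. Of 25 iron and heme genes 8 rose and 6 fell, with a median log2 difference of 0.09, beside 7 and 6 with a median of 0.03 for diet alone. Hamp, which encodes the iron hormone hepcidin, went from 3600 to 8610 TPM (median 7700) to 1180 to 3800 TPM (median 2000), a log2 difference of -1.62 (limma adjusted p = 2.31e-06), and Id1, a target of the same BMP pathway, fell by 1.49.

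Of 26 integrated and endoplasmic reticulum stress genes 2 rose and 6 fell, and of 19 p53 targets 4 rose and 2 fell, beside 17.6% and 11.2% of all genes. For diet alone 2 stress genes rose and 7 fell, and 5 p53 targets rose and 2 fell. Atf3, a stress-induced transcription factor, was present at 2.41 to 8.86 TPM (median 5.33) in the controls and 21.7 to 41.2 TPM (median 37.5) with both treatments, a log2 difference of 2.55 (limma adjusted p = 3.2e-05), and Gdf15, a stress hormone, rose by 2.22. The endoplasmic reticulum chaperones Hyou1 and Hspa5 fell by 0.97 and 0.70. Among p53 targets Fas and Bax rose by 0.60 and 0.53 while Cdkn1a fell by 2.58.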
